A study of Caenorhabditis elegans with 4 samples.

Results

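The regions described here are GEI-11 binding regions of Caenorhabditis elegans that lie in the broad domains of chromosome IV where the piRNA genes are found. A region belonged to the set when its centre lay from 4.5 to 7 Mb (the left domain) or from 14 to 17 Mb (the right domain) of chromosome IV in the WormBase WS220 build, ends included. The rule uses position and no measured value, though it was set with earlier results of these data known. Of 5999 regions in the authors' combined list, 1039 were on chromosome IV and 339 were members, 149 in the left domain and 190 in the right. The replicate 1 list held 172 regions in the domains (72 left, 100 right) of 3021 in all, and the replicate 2 list held 223 (103 left, 120 right) of 3722.

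Binding was mapped by chromatin immunoprecipitation and sequencing (ChIP-seq) in fed L1 hermaphrodites, the first larval stage, grown at 20 °C on HB101 bacteria and fixed in 2% formaldehyde. There were 2 ChIP samples, taken with an antibody against GFP, and 2 input samples of total chromatin DNA. All 4 came from strain OP179. It carries the unc-119(ed3) allele on chromosome III and the transgene wgIs179, which holds unc-119(+) as its marker and the fusion gei-11::TY1::EGFP::3xFLAG. The transgene was brought in by bombardment and the fusion protein was read in whole larvae, all cell types together. No untagged strain is among the samples and no region list of the inputs was used, so the regions were set against neither. Whether the q values take the inputs into account is not stated. Whether the replicates came from separate cultures is not stated, and their spread may be technical.

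GEI-11 is also named SNPC-4. It is a subunit of SNAPc, the complex that binds the promoters of small nuclear RNA genes and brings RNA polymerase to them. In the C. elegans germ line, SNPC-4 is also known to work with the protein PRDE-1 on the 21U-RNA genes, each of which makes a piRNA from its own short transcript. piRNAs guide the Argonaute PRG-1 to foreign and germline transcripts. L1 larvae contain very few germ cells, so a whole-larva sample is mostly somatic. The RefSeq table, which belongs to the WBcel235 assembly, lists 15363 piRNA genes, of which 14714 (95.8%) are on chromosome IV. Its coordinates are of another build than the region lists, so no region is placed on a gene here, and no sequence of a region is shown.

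The density of GEI-11 regions in the domains did not differ detectably from that elsewhere on the chromosome. The domains held 61.6 regions per Mb in the combined list, against 58.4 per Mb in the rest of chromosome IV, a ratio of 1.06 with a 95% interval of 0.924 to 1.20. The exact binomial test did not pass (p = 0.423, adjusted p = 0.586 over 4 tests by the Benjamini-Hochberg method). This test takes regions as independent although they cluster. Replicate 1 had 31.3 regions per Mb in the domains and 33.2 per Mb in the rest, a ratio of 0.942 (0.783 to 1.13). Replicate 2 had 40.5 and 38.3 per Mb, a ratio of 1.06 (0.898 to 1.25). The ratio lay on either side of 1 in the replicates, and each interval included 1.

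The left and right domains did not differ in density beyond this counting error either. The left domain held 59.6 regions per Mb and the right domain 63.3, a left-over-right ratio of 0.941 (0.754 to 1.17, exact binomial p = 0.586, adjusted p = 0.586). In replicate 1 the densities were 28.8 per Mb on the left and 33.3 on the right. In replicate 2 they were 41.2 on the left and 40.0 on the right, so the order turned between replicates. In covered length, the regions of the domains summed to 102 kb or 1.85% of the domains, against 246 kb or 2.06% of the rest of the chromosome. By domain the covered share was 1.98% on the left and 1.75% on the right.

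Along the domains, counts varied from window to window. Windows of 100 kb held 6.16 ± 3.50 regions in the domains (SD, n = 55 windows) and 5.83 ± 2.94 in the rest of the chromosome (SD, n = 119 windows). The variance was 1.99 times the mean in the domains and 1.48 times in the rest. In replicate 1 these values were 1.4 in the domains and 1.22 in the rest, and in replicate 2 they were 1.16 and 1.41. By domain the ratio was 1.98 on the left and 2.05 on the right for combined regions, 1.25 and 1.52 for replicate 1, and 1.04 and 1.31 for replicate 2. The left domain of replicate 2 thus had a variance close to its mean. The order of domains and rest turned in replicate 2, and the difference was not tested.

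**Figure D1:**
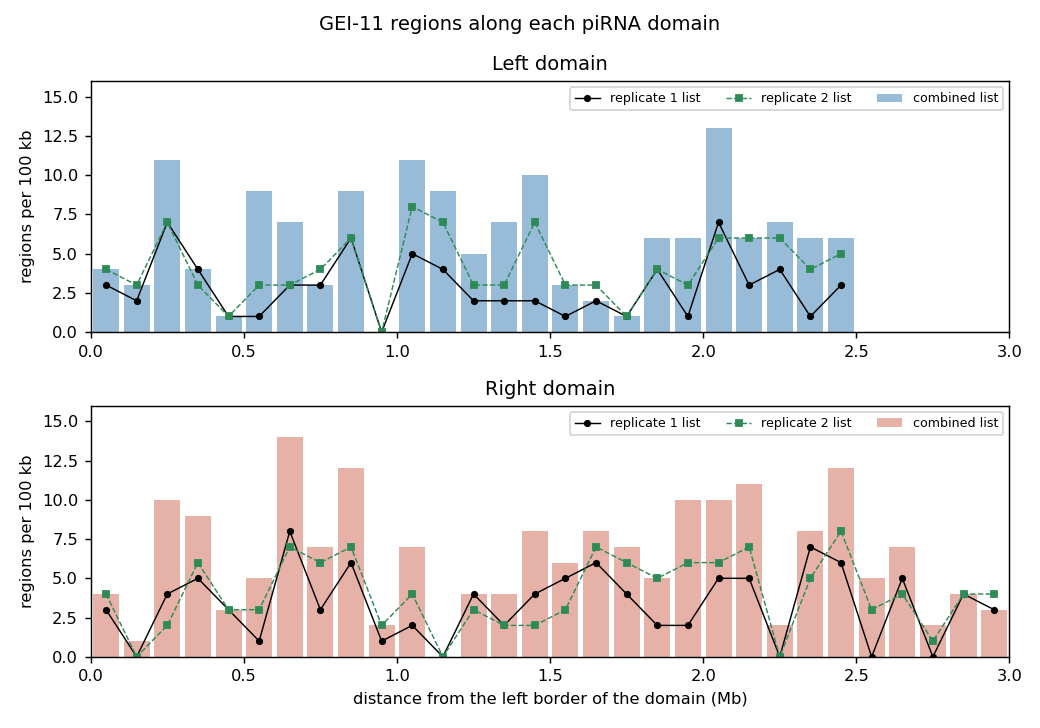
Regions per 100 kb window (y axis) against distance from the left border of each domain in Mb (x axis); bars are the combined list, circles replicate 1 and squares replicate 2. Counts of the 149 left and 190 right regions vary from window to window. The window starting 0.9 Mb into the left domain and the right-domain window 15100001 to 15200000 are empty in each list.

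The densest window of the left domain was 6500001 to 6600000, with 13 combined regions, 7 of replicate 1 and 6 of replicate 2. The windows 4700001 to 4800000 and 5500001 to 5600000 followed, with 11 regions each. The window from 4700001 had 7 regions in each replicate, and 7 of its 11 combined regions were met in both, the most of these windows.

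In the right domain the window 14600001 to 14700000 held most, with 14 combined regions, 8 in replicate 1 and 7 in replicate 2. The windows 14800001 to 14900000 and 16400001 to 16500000 held 12 each. Over these 6 windows the median −log10 q ran from 3.19 to 6.08. A q value is the authors' own for each region, the false discovery estimate of the peak caller. Its −log10 serves here as strength within a list, larger being stronger, and depends on read depth.

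Neighbouring regions stood closer in the domains than in the rest of the chromosome, by a median centre distance of 7.35 kb against 9.77 kb in the combined list. The left and right domains had 7.15 and 7.47 kb. Replicate 2 ran the same way, at 13.2 kb in the domains and 15.9 kb in the rest, and replicate 1 gave 18.7 and 19.3 kb. None of these differences was tested.

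Long empty stretches lay beside these close neighbours. Gaps of 100 kb or more between centres numbered 6 in the domains and 3 in the rest of chromosome IV, with 760 kb of the domains' length in such gaps. The domains held 10 such gaps and the rest 17 in replicate 1, and 10 and 12 in replicate 2. The domains are 31.5% of the chromosome's length, so long gaps were more frequent per Mb there in each list, a difference that was not tested.

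The longest gap of the left domain was 154 kb between centres, from the region 5394712 to 5395177 to the region 5548792 to 5549229. Replicates 1 and 2 each showed the same gap, at 154 kb. The regions beside it were both met in both replicates, with combined −log10 q of 22 and 10.1. The other 3 long gaps of the left domain, of 108, 110 and 115 kb, were also present in both replicates. They measured 133, 130 and 115 kb in replicate 1 and 133, 110 and 115 kb in replicate 2. The combined list shares its reads with the replicates and holds most of their regions. A stretch empty in the combined list is thus likely to be empty in each replicate, so this recurrence is not independent support.

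The longest gap of the right domain was 166 kb, from a weak region at 15068407 to 15068574 (−log10 q 3.49, met in replicate 2 only) to a strong region at 15234186 to 15234508 (28.2, met in both). It measured 195 kb in replicate 1 and 166 kb in replicate 2. The other long gap of the right domain, of 107 kb, measured 129 kb in each replicate, with the same limit. How far reads can be placed in these stretches was not tested.

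Support by the replicates did not differ detectably from that in the rest of the chromosome. A region of each replicate overlapped 131 of the members (38.6%, 95% exact Clopper-Pearson interval 33.4 to 44.1), where 38.8% of all 5999 combined regions did. In the rest of chromosome IV the share was 41.0% (287 of 700, interval 37.3 to 44.7), a difference of -2.36 percentage points that did not pass Fisher's exact test (p = 0.50, adjusted p = 0.586). Replicate 1 alone supported 24 members (7.08%) and replicate 2 alone 73 (21.5%). Over all combined regions these shares were 8.15% and 19.9%. The remaining 111 members (32.7%, interval 27.8 to 38.0) met a region in neither replicate, where 33.2% of all combined regions did.

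The left domain had 63 of 149 members in both replicates (42.3%, 34.2 to 50.6) and the right domain 68 of 190 (35.8%, 29.0 to 43.0). This difference did not pass Fisher's exact test (p = 0.261, adjusted p = 0.586). Members met only in replicate 1 numbered 5 of 149 on the left (3.36%, 1.10 to 7.66) and 19 of 190 on the right (10.0%, 6.13 to 15.2). The rest of chromosome IV had 9.43% and all combined regions 8.15%, so the left share was the one farther from them. Seen from the replicate 1 list, 63 of its 72 left-domain regions met a replicate 2 region (87.5%, 77.6 to 94.1), and 69 of its 100 right-domain regions did (69%, 59.0 to 77.9). The share was 73.6% in the rest of chromosome IV and 77.6% over the whole replicate 1 list. From the replicate 2 list the shares were 61.2% on the left (63 regions) and 58.3% on the right (70 regions), against 63.4% in the rest of chromosome IV and 63.0% over the whole list. The difference in the replicate 1 list was noticed after its values were seen and was not tested.

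Support followed strength, but these are not independent measures. The combined list shares its reads with the replicates, so strength in it and a call in each replicate are tied in advance. The rise of support with strength is therefore not a separate result, and only domains and rest within a class are compared here. All 66 members with a −log10 q of 10 or more were met in both replicates, as were 122 of 123 such regions in the rest of chromosome IV. From 5 to under 10, 57 of 72 members (79.2%, 68.0 to 87.8) and 140 of 172 regions of the rest (81.4%, 74.8 to 86.9) were met in both. From 3 to under 5 the counts fell to 8 of 84 members and 25 of 173 regions of the rest. Below 3 no region was met in both, among 117 members and 232 regions of the rest. Of these, 94 members (80.3%) and 176 regions of the rest (75.9%) were met in neither.

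**Figure D2:**
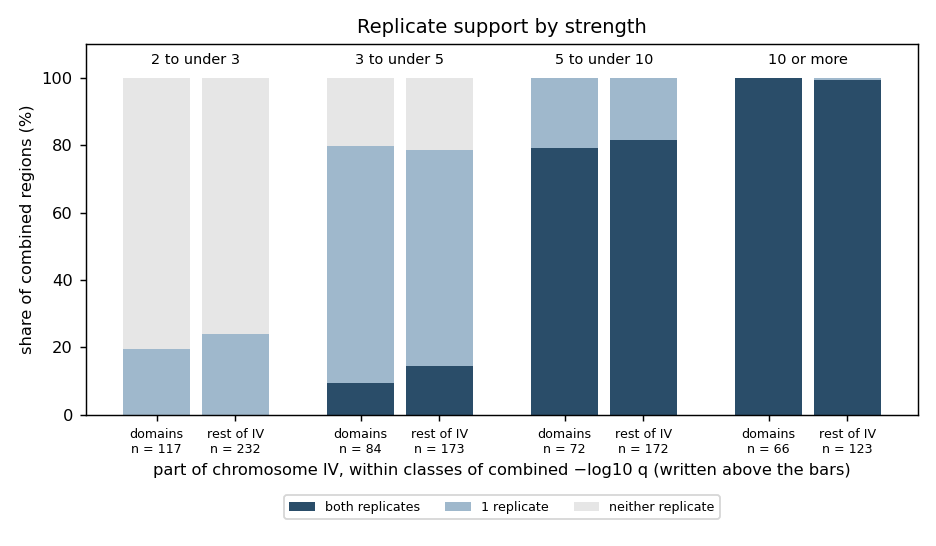
Share of combined regions in % (y axis) met in both, 1 or neither replicate, for the domains and the rest of chromosome IV within 4 classes of combined −log10 q (x axis). The paired bars are close in each class, with 79.2% of members and 81.4% of the other regions met in both at −log10 q from 5 to under 10. The lists share reads, so the change from class to class is not an independent result.

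For members met in both replicates the median combined −log10 q was 10.1 and the median width 390 bp, and for those met in neither they were 2.49 and 114 bp. The reads shared between the lists bear on this difference in −log10 q too. In all 131 members met in both replicates, the combined −log10 q was above that of each replicate. The same held for 285 of 287 such regions in the rest of chromosome IV. Replicate 2 had the higher −log10 q in 102 of the 131 (77.9%). The median of all 131 differences (replicate 2 minus 1) was 1.42. In the rest of chromosome IV replicate 2 was higher in 196 of 287 (68.3%), with a median difference of 0.746. On the left it was higher in 45 of 63 and on the right in 57 of 68. Across the 131 members Pearson's r between the replicates' −log10 q was 0.984, and Spearman's rho was 0.725. The points share a pair of libraries whose depth is unknown, so these values describe the lists only.

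**Figure D3:**
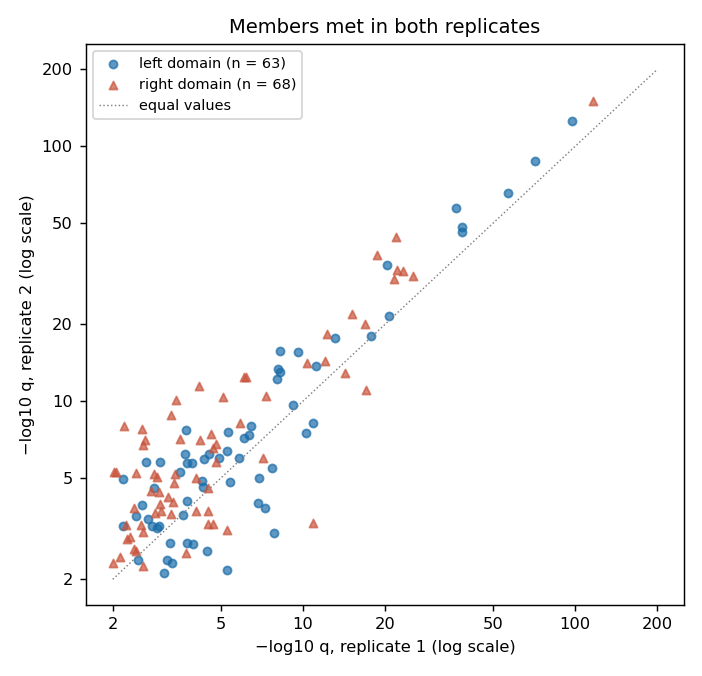
−log10 q in replicate 1 (x axis) and replicate 2 (y axis), both on log scales, for the 63 left-domain (circles) and 68 right-domain (triangles) members met in both replicates. In replicate 2, 102 of 131 points lie above the dotted line of equal values.

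Strong regions of the chromosome were present in both domains. A q of 1e-10 or less was reached by 66 members (19.5%, interval 15.4 to 24.1) and by 123 regions of the rest (17.6%, 14.8 to 20.6), where 19.7% of all combined regions did so. The left domain had 36 of 149 (24.2%, 17.5 to 31.8) and the right domain 30 of 190 (15.8%, 10.9 to 21.8). Within the replicate lists the gap to the rest of the chromosome was wider. In replicate 1, 28 of 172 domain regions (16.3%, 11.1 to 22.7) and 33 of 398 others (8.29%, 5.78 to 11.4) passed this q value, where 11.5% of the whole list did. In replicate 2 the counts were 36 of 223 (16.1%, 11.6 to 21.6) and 50 of 459 (10.9%, 8.19 to 14.1), where 14.2% of the whole list passed. The rest of chromosome IV thus lay below the whole list in both replicates, and the interval of the domains included the whole list's share in each. These differences were not tested, and neighbouring regions are not independent.

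Of the 10 strongest combined regions of chromosome IV, 4 were members, 3 on the left and 1 on the right. Of the 20 strongest, 9 were members, and of the 50 strongest 23 (46.0%, interval 31.8 to 60.7). Of the 100 strongest, 38 were members (38.0%, 28.5 to 48.3), where members were 32.6% of all combined regions of the chromosome, a share inside both intervals. The combined list lacks 1 region of this strength outside the domains that each replicate holds, with a −log10 q of 237 (replicate 1) and 290 (replicate 2), and lacks none in the domains, so the counts among the strongest leave that region out. By the median, strength did not set the domains apart in a constant direction. The median −log10 q was 3.76 in the domains and 4.19 in the rest for combined regions, 3.44 and 3.16 for replicate 1, and 3.54 and 3.68 for replicate 2.

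The strongest member of the right domain, and of all 339, was chromosome IV 14326810 to 14327459. Its −log10 q was 163 (combined), 116 (replicate 1) and 151 (replicate 2), and it ranked 38, 37 and 35 in these lists. It was 650 bp wide. The next right-domain region, 15853023 to 15853501, had 62.9 (combined), 22 (replicate 1) and 43.8 (replicate 2). The right domain thus held a single region far above its others, in each list.

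Next on the right came 14032579 to 14034509, which was also the widest member at 1931 bp (1704 bp in replicate 1 and 1864 bp in replicate 2). Its −log10 q was 55.9, 18.6 and 37.3 in the combined, replicate 1 and replicate 2 lists. Its neighbour in strength, 14013681 to 14014088, was 408 bp wide and had 52.6, 25.3 and 30.9. It was the first region inside the left border of the right domain. The remaining 6 of the 10 strongest on the right ran from 52.4 at 14445179 to 14445776 to 28.4 at 15472369 to 15472758. In the last of these, replicate 1 was higher than replicate 2 (14.3 and 12.9), and in the other 9 it was lower.

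In the left domain the strongest region was 4880525 to 4881143, with a −log10 q of 155 in the combined list, and 97.7 and 126 in replicates 1 and 2. The region 5317095 to 5317591 followed with 113, 71.2 and 87.5, and then 5063290 to 5063807 with 96.3, 56.4 and 65.5. The left domain thus held 3 regions above a combined −log10 q of 90, where the right held 1.

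Another 3 left-domain regions lay above a combined −log10 q of 60. The region 6117700 to 6118175 had 81.6 (combined), 36.4 (replicate 1) and 57.2 (replicate 2). The region 4930699 to 4931104 had 76.5, 38.4 and 48.3, and 5264684 to 5265148 had 68.9, 38.3 and 45.9. Of these 6 strongest, 5 lay between 4880525 and 5317591. All 10 of the strongest left-domain regions were met in both replicates, and replicate 2 was higher than replicate 1 in each.

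The few strongest regions of the left domain were narrower than those of the rest of chromosome IV, but this did not extend to its strong regions as a whole. Of its 6 regions with a −log10 q of 50 or more, widths ran from 406 to 619 bp with a median of 487 bp, and 1 reached 600 bp. In the right domain, 6 such regions had a median of 624 bp, and 3 reached 600 bp. In the rest of chromosome IV, 12 had a median of 897 bp and 9 reached 600 bp, and on the other chromosomes 59 of 107 did, with a median of 665 bp. These small numbers were not tested. Over the 36 left-domain regions with a −log10 q of 10 or more the median was 453 bp, and over the 123 in the rest it was 449 bp. From 5 to under 10 the medians were 389 bp on the left and 388 bp in the rest. Over all strengths, regions of 600 bp or more made up 25 of 339 members (7.37%), against 79 of 700 in the rest of the chromosome (11.3%), where 11.2% of all combined regions were this wide. The widest left-domain member, 6785109 to 6786258, was 1150 bp wide, against 624 and 353 bp in replicates 1 and 2.

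**Figure D4:**
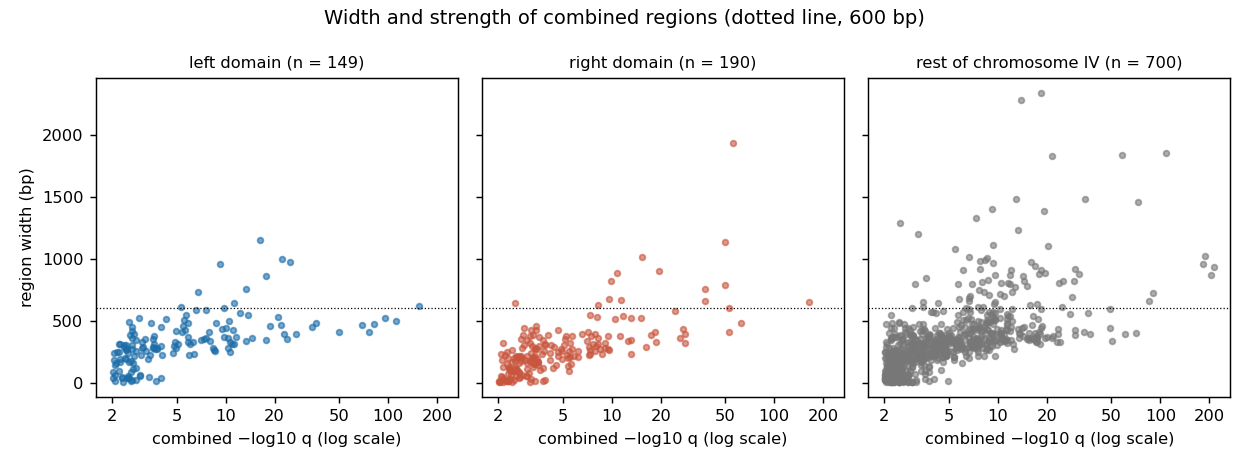
Region width in bp (y axis) against combined −log10 q on a log scale (x axis) for the left domain, the right domain and the rest of chromosome IV; the dotted line marks 600 bp. The 6 left-domain regions at 50 or more stay between 406 and 619 bp, and the widest member, at 1931 bp, is on the right.

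The difference between the domains that passed a test was in width, by a comparison chosen after the widths were seen. Right-domain regions were narrower than left-domain regions in each list. The median width was 313 bp on the left and 235 bp on the right for combined regions, 315 and 231 bp for replicate 1, and 320 and 240 bp for replicate 2. The rest of chromosome IV had 310, 298 and 305 bp in these lists, close to the left domain. The middle 50% of widths ran from 224 to 436 bp on the left and from 130 to 356 bp on the right in the combined list.

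Of left-domain regions, 67 of 149 (45.0%) were narrower than the chromosome's median of 299 bp, against 122 of 190 on the right (64.2%), where 46.0% of all combined regions were. This is a difference of -19.2 percentage points. It passed Fisher's exact test (p = 4.33e-04, adjusted p = 0.00217 over 5 tests), in a comparison chosen after the widths were seen. The adjustment does not cover that choice. The replicate lists gave 38.9% on the left and 65.0% on the right in replicate 1 (adjusted p = 0.00532), and 42.7% and 65.8% in replicate 2 (adjusted p = 0.00356) by the same exact test, each against its own chromosome IV median. Over the whole lists these shares were 41.9% in replicate 1 and 47.0% in replicate 2. The combined list shares its reads with the replicates, so the 3 results are not independent, and regions within a domain are not independent replicates.

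Width followed strength, and the median −log10 q was also lower on the right, at 4.0 on the left and 3.57 on the right for combined regions, 4.31 and 2.96 for replicate 1, and 3.81 and 3.35 for replicate 2. Within classes of strength the right domain was narrower in the 3 weaker ones, in each list. Combined regions from 2 to under 3 had medians of 185 bp on the left and 112 bp on the right, those from 3 to under 5 had 281 and 215 bp, and those from 5 to under 10 had 389 and 291 bp. At 10 or more the order turned, with 453 bp on the left and 514 bp on the right. At a q of 1e-5 or less, 7 of 66 left (10.6%) and 24 of 72 right regions (33.3%) were below the median width. This difference passed Fisher's exact test (adjusted p = 0.00958). The split does not hold strength fixed, as 36 of the 66 and 30 of the 72 had a −log10 q of 10 or more. Among weaker regions the shares were 60 of 83 (72.3%) and 98 of 118 (83.1%), and the exact test did not pass (adjusted p = 0.405). The split was chosen after seeing the data, and shares over all combined regions were not taken within it.

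**Figure D5:**
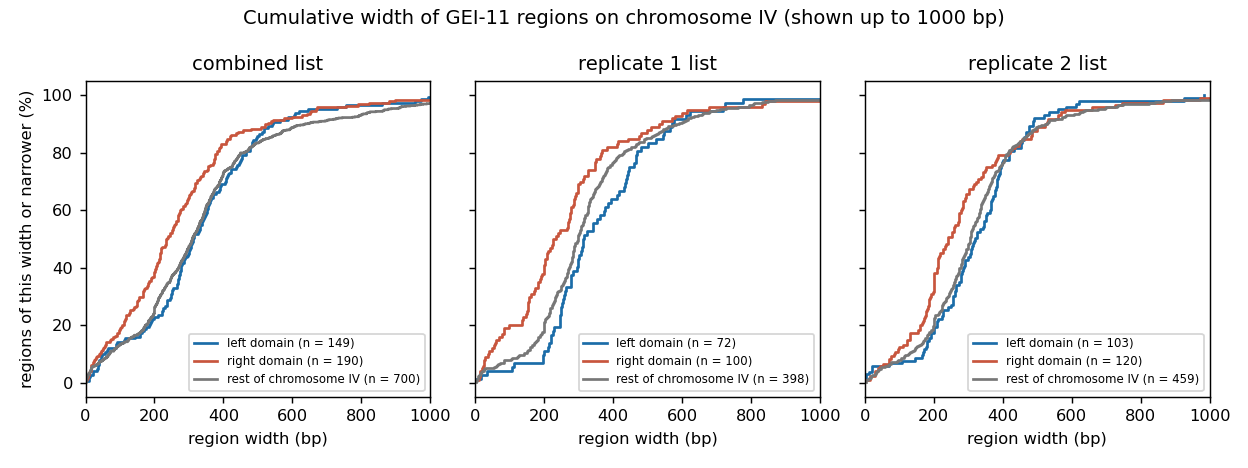
Cumulative share of regions in % (y axis) up to a given width in bp (x axis, shown up to 1000 bp) for the left domain, the right domain and the rest of chromosome IV in each list. The right-domain curve rises first in all 3 panels, with medians of 235, 231 and 240 bp.

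Within the right domain, median widths were low in most steps and in all of those beyond 15 Mb. By 500 kb steps, the combined median width was 233 and 270 bp from 14 to 15 Mb, then 205, 217, 235 and 232 bp from 15 to 17 Mb. Replicate 1 had 286 and 292 bp, then 214, 202, 200 and 194 bp. Replicate 2 had 233 and 294 bp, then 274, 227, 226 and 225 bp. From 15 Mb onward every step was below the chromosome IV median of its list (299, 291 and 299 bp), and before 15 Mb a step of replicate 1, at 292 bp, was not.

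Set beside all 97 full 1 Mb bins of the genome, the bin from 15 to 16 Mb of chromosome IV had the lowest median width in the combined list (213 bp), the second lowest in replicate 1 (202 bp) and ranked 4 in replicate 2 (232 bp). The bin from 16 to 17 Mb ranked 4 (234 bp), 1 (200 bp) and 2 (226 bp). The bin from 14 to 15 Mb was not among the narrowest, at ranks 11 (268 bp), 22 (291 bp) and 24 (292 bp). The median over all bins was 319, 312 and 310 bp in the 3 lists. The bin from 17 to 18 Mb of chromosome V ranked 2, 4 and 1. In the combined list the bins 2000001 to 3000000 and 19000001 to 20000000 of chromosome V ranked 3 and 5. Another bin of chromosome V ranked 5 in replicate 1, and bins of chromosomes V and III ranked 3 and 5 in replicate 2. Bins of short regions thus also occurred on other chromosomes. On chromosome IV outside the domains, the bin from 1 to 2 Mb ranked 10 (264.5 bp), 3 (237 bp) and 15 (280.5 bp). It was thus narrower than the bin from 14 to 15 Mb in each list. The left domain had 311, 290, 359, 354 and 283 bp along its 500 kb steps in the combined list.

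Regions under 50 bp were 37 of 339 members (10.9%), against 55 of 700 in the rest of the chromosome (7.86%). In replicate 1 they were 14 of 172 (8.14%) and 21 of 398 (5.28%), and in replicate 2 13 of 223 (5.83%) and 25 of 459 (5.45%). Over the whole lists the share was 7.30% for combined regions, 3.44% for replicate 1 and 3.87% for replicate 2. The smallest member spanned 2 bp. Such widths are below that of a sonicated fragment, and what they stand for is not stated in the files.

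Close pairs, in which neighbouring regions left a gap of at most 500 bp, numbered 15 in the domains (5 left, 10 right) and 31 in the rest of chromosome IV. The domains held 339 combined regions (149 left, 190 right) and the rest 700, so close pairs were about as frequent per region in both. In 1 of the 15 both regions were met in both replicates, against 5 of the 31. In 4 of the 15 both were met in neither, against 2 of the 31. These small counts were not tested.

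At the borders, the first member on the left, 4506693 to 4506836, had a −log10 q of 2.10, and the region just outside it, 4476887 to 4477492, had 3.44. The last left-domain member, 6965376 to 6965384, had 2.10 and the next region outside, 7011700 to 7011766, had 2.01. On the right, the first member had 52.6, as given above, and the region outside it, 13991476 to 13991478, had 2.19. The last member, 16995438 to 16995770, had 7.01 and the region outside it, 17053151 to 17053325, had 3.42.

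Of the replicate lists' own regions in the domains, 156 of 172 in replicate 1 and 207 of 223 in replicate 2 met a combined region. The 16 unmet ones in each list were weak, with a −log10 q of at most 2.63 in replicate 1 and 2.92 in replicate 2. In the rest of chromosome IV, 37 regions of replicate 1 and 30 of replicate 2 were unmet, and 1 in each had a q of 1e-10 or less, the strong region named above.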

How the data were processed

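Per the file headers, the authors deposited PeakSeq binding regions as positions in WormBase WS220, carried over from a build that is not named, with a q value (p-value adjusted by the peak caller) for each region. There was 1 list for each ChIP replicate and 1 combined list. For the combining of replicates, the aligner, versions, filters and use of the inputs, the detail is not given in the sources at hand. No q value exceeded 0.01. Read depth is unknown, and −log10 q serves to order a single list only. Precision is that of counting regions.

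Regions were placed by centre, the rounded-down mean of start and end, and lists were matched by an overlap of at least 1 bp, taking the match with the smallest q. The chromosome's length was the furthest region end, 17484885 bp. Densities were compared by two-sided exact binomial tests and shares by two-sided Fisher's exact tests in scipy 1.17.1, with p-values adjusted over 4 tests and a threshold of 0.05, or over 5 with the width comparison that was added later. Intervals are 95% exact and cover counting error only. The tests were tried on simulated counts of independent regions, so the clustering of the regions here was not covered. The matching was tested on simulated regions. Named regions were the 10 with the smallest q in each domain, the widest, those beside the longest gap and each border, and the 3 densest windows of 100 kb. The members, lists and tests were chosen with earlier results of these data known. Alternatives changed the list, overlap, strength, width, merging and borders.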

Additional observations from a re-analysis of the deposited data

How the results depend on the processing

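Of 37 alternatives for the 5 tested comparisons, 12 turned the direction and 1 lost a call. The other 24 kept the side of the threshold without turning direction. In 1 of these, left against right support at a q of 1e-10 or less, the difference was 0 with all regions met. The 12 turns were all between values that passed no test. No paired analysis was possible because no test is over samples, and no list of the inputs was used. With 1 replicate list alone, the density ratio of the domains to the rest of chromosome IV ran from 0.942 to 1.06, and the left-over-right ratio from 0.864 to 1.03. With 1 replicate alone, the share met differed by -4.71 to 0.0341 percentage points between the domains and the rest, by -0.152 to 6.39 points between left and right, and the share of narrow regions by -26.1 to -23.1 points between left and right.

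The stronger 50% of the combined list gave 0.964 for the domains, 1.05 for left over right and 4.24 points in support (domains minus rest). Regions met in both replicates gave 0.995 and 1.11. A q of 1e-10 or less gave 1.44 for left over right and 0.813 points in support. Borders of 4 to 8 and 13 to 17 Mb gave 1.05 for left over right. The width difference fell to -10.8 points and lost its call among regions with a q above 1e-5. Its alternatives, like the comparison, were chosen after seeing the data. The causes of these changes were not tested. Of 12 alternatives for medians that carry no test, 6 were classed as moved, against a measure of the spread between replicates. Some of these were the replicate lists themselves. For width (domains minus rest) the replicates lay close together, at -20 and -23 bp against -35 bp for combined regions. Small shifts in width were therefore classed as moved. The wider borders gave median widths of 297 bp in the domains and 301 bp in the rest. Read depth, which limits how many weak regions are called, is unknown.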
